A study of Mus musculus with 8 samples.

Results

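The 8 genes described here are ones commonly used to mark mouse eosinophils: Siglecf, Ccr3, Il5ra, Prg2, Epx, Ear1, Ear2 and Ear6. They were taken by symbol from the 49315 gene identifiers of the count tables, and each symbol matched 1 identifier. The data were RNA sequencing counts from 8 libraries of peritoneal neutrophils that casein, a milk protein, had drawn into the cavity of 2-month-old C57BL/6 mice. The mice were wild type or deficient in the histamine H2 receptor (H2R), and the cells had been separated into a high-density and a low-density population. The 4 groups held 2 libraries each, numbered 2 and 4 in wild type and 1 and 2 in H2R-deficient cells. The labels give neither the deleted part of the H2R gene nor whether the paired libraries of a group stand for different mice or for pools. P-values therefore reflect only library-to-library spread, which may be technical.

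Eosinophils are granulocytes of the bone marrow that depend on interleukin 5 for their growth and survival and that settle in tissues, the peritoneal cavity among them. Their specific granules store toxic proteins, including major basic protein, eosinophil peroxidase and ribonucleases of the eosinophil-associated (Ear) family. At their surface they carry the interleukin 5 receptor, the eotaxin receptor CCR3 and the sialic acid-binding lectin Siglec-F. These surface proteins are not exclusive to eosinophils: Siglec-F also marks alveolar macrophages, and the interleukin 5 receptor is also carried by a subset of peritoneal B cells.

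The label of the gene set held only in part. Each library held between 19862716 and 24199215 counts, and a gene at 0 counts could have had a level of up to 0.124 to 0.151 CPM (a count scaled to a common library total), which is the value of 3 counts. This limit covers counting error only, since sequenced reads are not independent molecules. Epx, the eosinophil peroxidase gene, had 0 counts in 7 of the 8 libraries and 5 counts in wild-type high-density library 4. Prg3, the gene of the second major basic protein, had between 0 and 14 counts, and the further Ear family genes Ear10 and Ear14 had 0 counts in every library. Ear10 shares transcript stretches with Ear1 and Ear2, and how reads mapping to several places were counted is not stated. Its 0 counts are therefore uncertain. The 10 neutrophil markers summed to between 18930 and 74870 CPM over TMM-scaled library sizes, while the 8 eosinophil-associated genes together summed to between 28.98 and 120.4 CPM. Hrh2, which encodes H2R, had 215 to 599 counts in the H2R-deficient and 556 to 2003 counts in the wild-type libraries (edgeR adjusted p = 0.192 at high and 0.196 at low density).

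In GRCm38, the build of the count files, the members lie on 6 chromosomes, and their coordinates equalled those of the GENCODE M21 annotation. Siglecf (ENSMUSG00000039013) spans chr7:43351341-43359531 on the plus strand, Ccr3 (ENSMUSG00000035448) chr9:124021972-124031689 on the plus strand and Il5ra (ENSMUSG00000005364) chr6:106710357-106749037 on the minus strand. Prg2 (ENSMUSG00000027073) spans chr2:84980461-84983632 on the plus strand and Epx (ENSMUSG00000052234) chr11:87864000-87875536 on the minus strand. The ribonuclease genes share chromosome 14. Ear1 (ENSMUSG00000072601) spans chr14:43818765-43875517 on the minus strand, Ear2 (ENSMUSG00000072596) chr14:44102654-44103534 on the plus strand and Ear6 (ENSMUSG00000062148) chr14:51853699-51854643 on the plus strand.

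The starts of the 3 receptor genes are shown because Il5ra ran against Siglecf and Ccr3 in the values that follow, while all 3 hold letters bound by GATA factors, the family that includes GATA-1, a transcription factor needed for the eosinophil lineage. The motif letters searched on both strands were AGATAA or AGATAG or TGATAA or TGATAG, in RefSeq windows of GRCm38.p6 from 250 bases before to 50 after each gene's start. Such windows were found for 7 of the 8 genes, Prg2 being the exception. The sequences run from 120 bases before to 30 after the start, 5′ to 3′ on the gene's strand, with the matches in capitals. They cover chr7:43351221-43351370 (plus), chr9:124021851-124022000 (plus) and chr6:106749008-106749157 (minus).
Siglecf: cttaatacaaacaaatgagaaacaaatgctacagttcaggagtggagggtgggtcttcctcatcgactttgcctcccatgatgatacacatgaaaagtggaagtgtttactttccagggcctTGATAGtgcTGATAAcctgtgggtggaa
Ccr3: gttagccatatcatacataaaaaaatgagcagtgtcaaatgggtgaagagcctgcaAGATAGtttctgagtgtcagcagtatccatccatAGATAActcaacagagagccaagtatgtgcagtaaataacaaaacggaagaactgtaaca
Il5ra: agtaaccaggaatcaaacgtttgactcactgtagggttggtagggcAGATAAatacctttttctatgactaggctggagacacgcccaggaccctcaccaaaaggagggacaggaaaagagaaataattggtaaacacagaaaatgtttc

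Counting the first base of each match from the gene's start, Siglecf held 2 GATA matches, at 2 and 11. Ccr3 also held 2, at -64 and -30, and Il5ra held 1, at -74. Of all 32851 windows, 29.8% held at least 1 such match and 7.77% at least 2. The windows of Epx, Ear1, Ear2 and Ear6 held none of these letters. GAGGAA, letters bound by PU.1, stood in the windows of Siglecf, Ccr3 and Il5ra and in 28.3% of all windows. TTGCNNAA, letters bound by C/EBP factors, stood in those of Ear1 and Ear2 and in 10.8% of all windows. A match describes the letters only.

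Ear1 and Ear2 are shown side by side because they are near copies, which limits how their counts can be read. Their starts (chr14:43819610-43819889 on the minus strand and chr14:44102404-44102683 on the plus strand, from 250 bases before to 30 after the RefSeq start) are written with the bases that differ in capitals.
Ear1: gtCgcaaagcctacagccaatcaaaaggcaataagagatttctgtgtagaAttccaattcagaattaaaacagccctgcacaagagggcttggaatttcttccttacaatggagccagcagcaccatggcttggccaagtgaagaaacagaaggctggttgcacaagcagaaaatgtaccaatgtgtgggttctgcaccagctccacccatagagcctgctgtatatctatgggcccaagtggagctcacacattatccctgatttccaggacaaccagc
Ear2: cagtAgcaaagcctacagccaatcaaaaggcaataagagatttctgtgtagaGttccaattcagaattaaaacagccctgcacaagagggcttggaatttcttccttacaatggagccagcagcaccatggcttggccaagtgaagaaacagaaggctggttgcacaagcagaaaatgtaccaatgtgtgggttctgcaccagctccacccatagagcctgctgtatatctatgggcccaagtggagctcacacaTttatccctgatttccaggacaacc

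Over the whole windows these starts were identical at 294 of 298 aligned bases (98.7%), and the transcripts at 690 of 717 (96.2%). Of the 50-base stretches of Ear1 transcripts, 57.4% also occur in transcripts of other genes, and for Ear2 the share was 41.5%. Ear6 was further apart, with 88.6% transcript identity to each of Ear1 and Ear2 and 0.954% of its 50-base stretches shared. How reads mapping to several places were counted is not stated in the labels or headers, so the levels of Ear1 and Ear2 are uncertain. The strand setting is not stated either, and long noncoding RNA genes not used here overlap Ear1 and Ear2 on the opposite strand. The pseudogene Ang-ps2 also overlaps Ear1 on the opposite strand. On the same strand the pseudogenes Ear-ps12 and Ear-ps9 overlap the Ear1 span, and each had 0 counts over the libraries. The RefSeq start used for Ear1 lies within its annotated span and not at the annotated 5′ end.

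**Figure D1:**
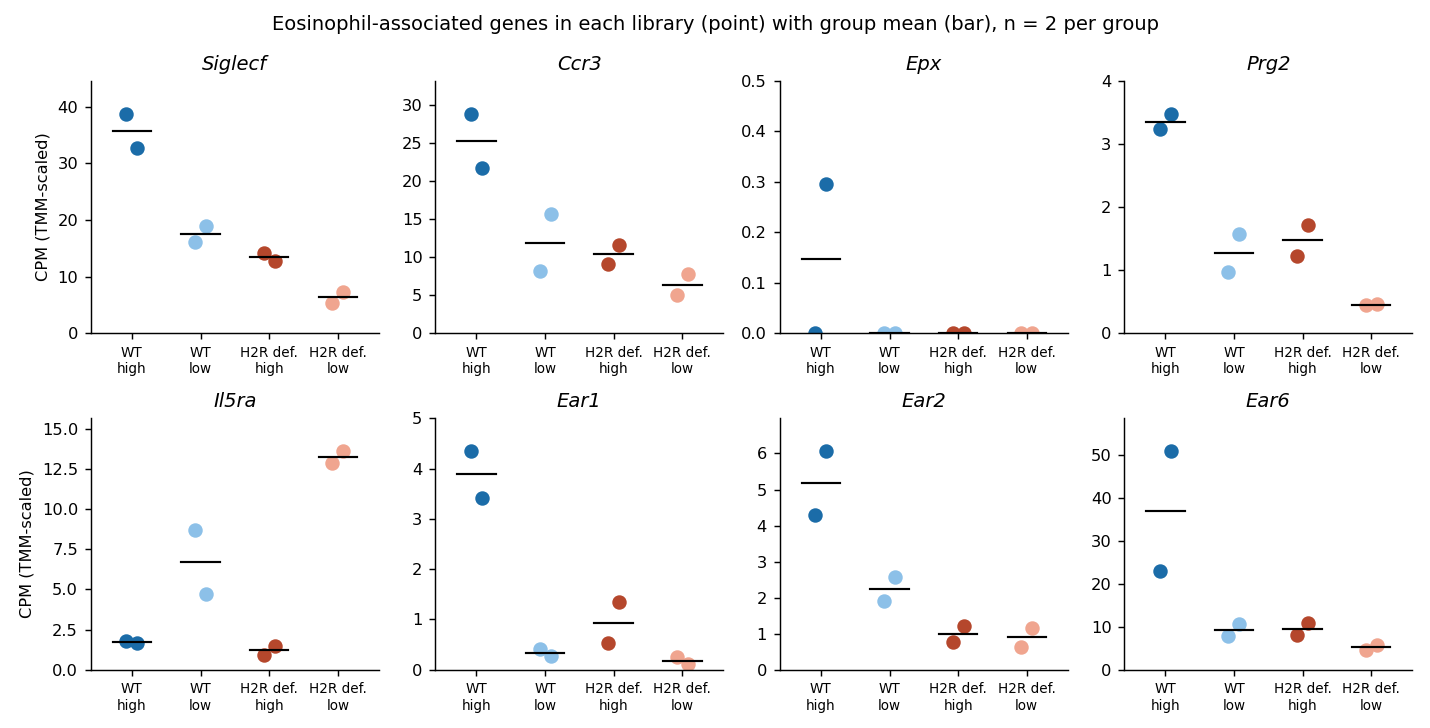
TMM-scaled CPM (vertical axis) of the 8 genes in each of the 8 libraries (points), by genotype and density, with the group mean as a bar (n = 2 per group). Siglecf, Ccr3, Prg2, Ear1, Ear2 and Ear6 were highest in wild-type high-density libraries, Il5ra was highest in H2R-deficient low-density libraries, and Epx was at 0 in all but 1 library.

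Levels per library are given as CPM over TMM-scaled library sizes. The granule protein genes were low apart from Ear6. Prg2, which encodes major basic protein, had 55 and 59 counts in wild-type high-density libraries 2 and 4 (3.24 and 3.48 CPM) and 24 and 40 counts in wild-type low-density libraries (0.973 and 1.57 CPM). In H2R-deficient cells it had 21 and 27 counts at high density (1.23 and 1.72 CPM) and 16 and 13 at low density (0.443 and 0.460 CPM). The wild-type high-density libraries stood above all others, the H2R-deficient low-density libraries below all others, and the 2 groups between them overlapped.

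Ear6, an Ear ribonuclease gene, held the widest range. It had 391 and 864 counts in wild-type high-density libraries (23.0 and 51.0 CPM), 193 and 274 in wild-type low-density libraries (7.82 and 10.7 CPM), 139 and 170 in H2R-deficient high-density libraries (8.12 and 10.8 CPM) and 162 and 166 in H2R-deficient low-density libraries (4.49 and 5.87 CPM). The pair of wild-type high-density libraries differed by more than any other pair, with library 4 the higher. Wild-type low-density and H2R-deficient high-density libraries overlapped.

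Ear1 and Ear2, also ribonuclease genes, differed in their order. Ear1 had 4.36 and 3.42 CPM in wild-type high-density, 0.526 and 1.34 in H2R-deficient high-density, 0.405 and 0.274 in wild-type low-density and 0.249 and 0.106 CPM in H2R-deficient low-density libraries, the last resting on 9 and 3 counts. Ear2 had 4.3 and 6.08 CPM in wild-type high-density, 1.90 and 2.58 in wild-type low-density, 0.759 and 1.21 in H2R-deficient high-density and 0.637 and 1.17 CPM in H2R-deficient low-density libraries. No groups of Ear1 overlapped, and the H2R-deficient populations overlapped for Ear2. The wild-type low-density libraries thus stood below the H2R-deficient high-density libraries for Ear1 and above them for Ear2.

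Of the surface receptors, Siglecf, an inhibitory lectin gene, was the most evenly ordered. It had 658 and 554 counts in wild-type high-density libraries (38.8 and 32.7 CPM), 398 and 482 in wild-type low-density libraries (16.1 and 18.9 CPM), 241 and 201 in H2R-deficient high-density libraries (14.1 and 12.8 CPM) and 192 and 207 in H2R-deficient low-density libraries (5.32 and 7.32 CPM). The 4 groups followed in that order without overlap.

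Ccr3, the receptor gene for eotaxins, had 489 and 368 counts in wild-type high-density libraries (28.8 and 21.7 CPM) and 201 and 399 in wild-type low-density libraries (8.15 and 15.6 CPM). In H2R-deficient cells it had 155 and 182 counts at high density (9.05 and 11.6 CPM) and 180 and 219 at low density (4.99 and 7.74 CPM). The 2 middle groups, wild-type low density and H2R-deficient high density, overlapped.

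Il5ra, the gene of the ligand-binding chain of the interleukin 5 receptor, ran in the opposite direction. It had 30 and 28 counts in wild-type high-density libraries (1.77 and 1.65 CPM) and 214 and 120 in wild-type low-density libraries (8.67 and 4.70 CPM). In H2R-deficient cells it had 16 and 23 counts at high density (0.934 and 1.47 CPM) and 464 and 386 at low density (12.9 and 13.6 CPM). The order from the top was H2R-deficient low density, wild-type low density, wild-type high density and H2R-deficient high density, with no overlap.

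Per kilobase of exon length, which allows levels of different genes to be set beside each other, Ear6 was the highest member in wild-type high-density libraries, at 24.4 and 54.0 TMM-scaled CPM per kb. Siglecf followed at 13.9 and 11.7, and Ccr3 at 8.81 and 6.64 CPM per kb overlapped with Ear2 at 5.98 and 8.46. Il5ra stood at 0.494 and 0.462 CPM per kb in the same libraries. In H2R-deficient low-density libraries Ear6 was at 4.75 and 6.21 CPM per kb and Il5ra at 3.6 and 3.82, above Siglecf at 1.91 and 2.62.

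Low density was compared with high density in each genotype, which asks how the populations differ. In wild-type cells, 1 of the 7 genes that could be tested rose and 4 fell with low density (edgeR's quasi-likelihood test with Benjamini-Hochberg adjustment over 14909 genes). Among all tested genes 12.7% passed, 8.51% higher and 4.15% lower. Epx did not reach the filter on low counts. In bulk samples, fewer cells of a type and less RNA per cell cannot be told apart.

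Siglecf fell from 35.7 ± 4.29 to 17.5 ± 1.94 CPM (mean ± SD, n = 2), a log2 fold change of -1.03 ± 0.21 (SE, edgeR adjusted p = 0.0202). Its call was lost without wild-type high-density library 2 (edgeR adjusted p = 0.107) and without wild-type low-density library 2 or 4 (0.134 and 0.0551). The granule genes went the same way. Ear1 fell from 3.89 ± 0.663 to 0.340 ± 0.0928 CPM (n = 2; log2 fold change -3.50 ± 0.58, edgeR adjusted p = 0.0114), with its call lost without the same 3 libraries in turn (edgeR adjusted p = 0.0745, 0.0697 and 0.0536). Ear6 fell from 37.0 ± 19.8 to 9.27 ± 2.05 CPM (n = 2; -2.0 ± 0.37, edgeR adjusted p = 0.0171) and lost its call without wild-type low-density library 2 (0.116).

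Prg2 had a log2 fold change of -1.40 ± 0.39 with an edgeR adjusted p of 0.0445 and fell out of the calls without each of the 8 libraries in turn (edgeR adjusted p from 0.0502 to 0.242). Ccr3 (-1.09 ± 0.34, edgeR adjusted p = 0.0621) and Ear2 (-1.21 ± 0.40, edgeR adjusted p = 0.0714) did not pass. Il5ra was the member that rose, from 1.71 ± 0.0813 to 6.69 ± 2.81 CPM (n = 2; 1.96 ± 0.35, edgeR adjusted p = 0.0136). Its call was lost without wild-type high-density library 2 (edgeR adjusted p = 0.0901) and without wild-type low-density library 2 (0.0799, with a log2 fold change of 1.46).

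All 7 tested genes were without overlap between the wild-type populations, 6 lower and 1 higher at low density, where 62.1% of all tested genes were without overlap (35.1% higher and 27% lower). The median of the 7 log2 fold changes was -1.21, beside 0.10 over all tested genes.

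In H2R-deficient cells 1 of the 7 genes rose and 3 fell with low density, in a comparison where 54% of all tested genes passed, 30% higher and 23.9% lower. Siglecf fell from 13.5 ± 0.882 to 6.32 ± 1.41 CPM (n = 2; log2 fold change -1.09 ± 0.22, edgeR adjusted p = 0.00279). Prg2 fell from 1.48 ± 0.351 to 0.451 ± 0.0115 CPM (n = 2; -1.69 ± 0.42, edgeR adjusted p = 0.0084), a call lost without H2R-deficient low-density library 1 (0.0510). Ear1 fell from 0.933 ± 0.576 to 0.178 ± 0.101 CPM (n = 2; -2.31 ± 0.62, edgeR adjusted p = 0.0123). Leaving out H2R-deficient high-density library 2 gave -1.5 and leaving out low-density library 2 gave -1.87, and neither passed (edgeR adjusted p = 0.108 and 0.0699).

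Il5ra rose from 1.2 ± 0.377 to 13.3 ± 0.558 CPM (n = 2), a log2 fold change of 3.46 ± 0.36 (edgeR adjusted p = 0.000237). Ccr3 (-0.70 ± 0.35, edgeR adjusted p = 0.112), Ear6 (-0.87 ± 0.37, edgeR adjusted p = 0.0756) and Ear2 (-0.14 ± 0.45, edgeR adjusted p = 0.812) did not pass, and with total counts only in place of TMM their values were positive. Of the 7 genes, Ear2 was the one whose H2R-deficient populations overlapped, and 81.1% of all tested genes were without overlap in this comparison (43.9% higher and 37.1% lower). The median of the 7 log2 fold changes was -0.87, beside 0.10 over all tested genes, and it was 0.03 with total counts only.

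**Figure D2:**
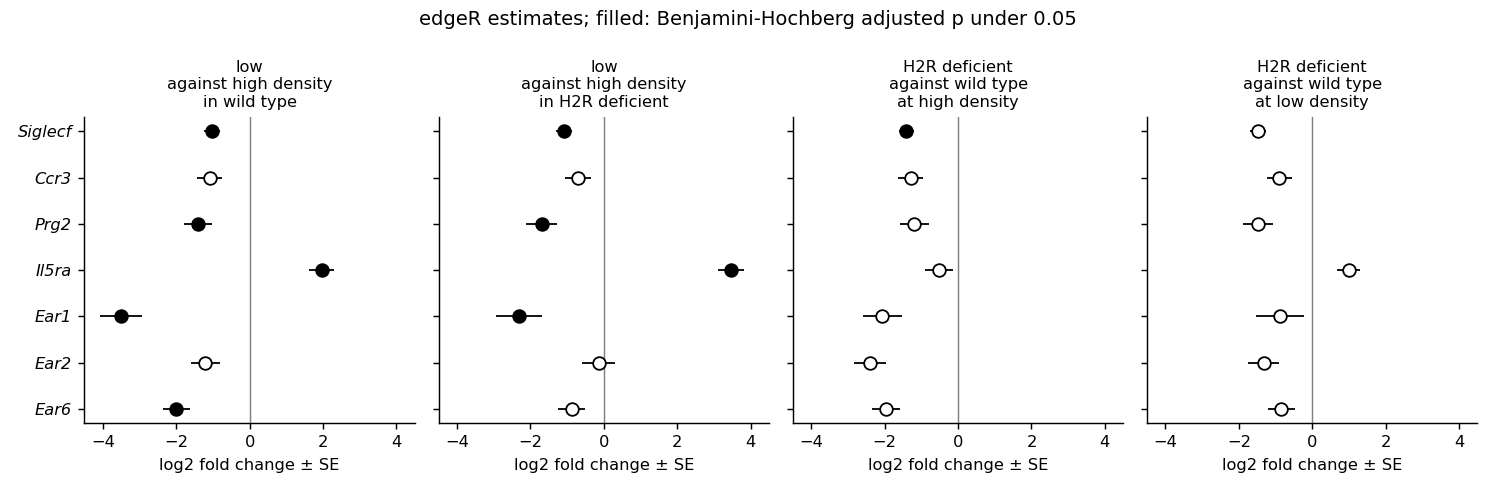
Log2 fold changes (horizontal axis, with standard errors) of the 7 tested genes in the density comparison of each genotype and in the genotype comparison of each density; filled points had an edgeR adjusted p under 0.05. Il5ra alone lies to the right in both density comparisons and at low density in the genotype comparison; with total counts only in place of TMM, Ccr3, Ear2 and Ear6 would lie on the positive side in the H2R-deficient density comparison.

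These density values lean on the library scaling. The TMM factors were 0.742 to 0.808 in high-density and 1.11 to 1.49 in low-density libraries. With total counts only, all tested genes together had a median of 0.67 (log2) for wild-type and 1.0 for H2R-deficient cells, against 0.10 in each with TMM. On total counts Siglecf failed the test, at -0.46 for wild-type and -0.20 for H2R-deficient cells (edgeR adjusted p = 0.100 and 0.443), and Prg2 was at -0.85 and -0.79 (edgeR adjusted p = 0.122 and 0.147). Ear1 in H2R-deficient cells was at -1.40 (edgeR adjusted p = 0.0954). In wild-type cells Ear1 (-2.92, edgeR adjusted p = 0.0071) and Ear6 (-1.45, edgeR adjusted p = 0.0145) stayed lower and passed. Il5ra rose under both scalings, and on total counts its log2 fold change was 2.56 for wild-type and 4.37 for H2R-deficient cells. Siglecf, Prg2, Ear1, Ear2, Ear6 and Ccr3 lay below the median of all tested genes in both genotypes, and a change of scaling moves that median and these genes by about the same amount.

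**Figure D3:**
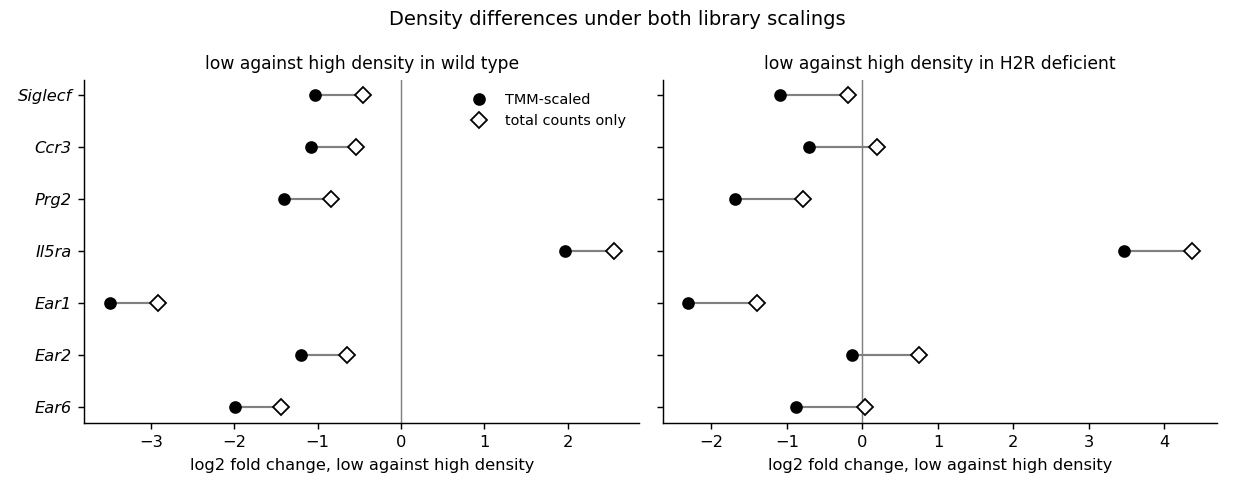
Log2 fold change of low against high density (horizontal axis) of the 7 tested genes with TMM-scaled libraries (filled circles) and with total counts only (open diamonds), in each genotype. Every gene moved to the right on total counts, and in H2R-deficient cells Ccr3, Ear2 and Ear6 crossed 0, at 0.19, 0.75 and 0.03.

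The ratio of each gene to Siglecf within a library does not depend on that scaling. Over all 8 libraries, 6 such ratios were compared between the 4 low-density and 4 high-density libraries by an exact permutation test (two-sided). Both genotypes were pooled in each density without holding genotype fixed, and the smallest p possible in this test was 0.0286. Per 100 Siglecf counts there were 4.56 to 11.4 Il5ra counts in the high-density and 24.9 to 241.7 in the low-density libraries, so the ranges did not overlap. The log2 ratio of Il5ra to Siglecf was -3.92 ± 0.60 at high and -0.18 ± 1.54 at low density (SD, n = 4), a difference of 3.74 (exact permutation p = 0.0286, adjusted p = 0.114 over the 6 ratios). The low-density SD spans both genotypes, with 53.8 and 24.9 Il5ra counts per 100 Siglecf counts in wild-type and 241.7 and 186.5 in H2R-deficient libraries.

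The ratio of Ear1 to Siglecf differed by -1.80 and that of Prg2 by -0.48 (exact permutation p = 0.0571 each, adjusted p = 0.114 each, n = 4 per density). Ccr3 differed by 0.13 (exact permutation p = 0.657, n = 4 per density), with 50.5 to 105.8 Ccr3 counts per 100 Siglecf counts over the 8 libraries. Ear2 and Ear6 differed by 0.38 and -0.32 (exact permutation p = 0.400 each, n = 4 per density). None of the 6 passed after adjustment. With a smallest possible exact permutation p of 0.0286, no ratio could pass on its own after adjustment over 6, however complete its separation. Missing the threshold here therefore does not show that a ratio was alike at both densities.

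Genotype was compared at each density, which asks whether loss of H2R changes these levels. In high-density cells 1 of the 7 genes, Siglecf, was lower in H2R-deficient libraries, in a comparison where 0.208% of all tested genes passed (31 genes, with 0.188% lower and 0.0201% higher). Siglecf went from 35.7 ± 4.29 in wild-type to 13.5 ± 0.882 CPM in H2R-deficient libraries (n = 2), a 2.66-fold difference with a log2 fold change of -1.41 ± 0.21 (edgeR adjusted p = 0.0458). The call was lost without each of the 8 libraries in turn, low-density ones included (edgeR adjusted p from 0.0657 to 0.272), with log2 fold changes from -1.53 to -1.28. It was also lost in limma-voom (-1.40, adjusted p = 0.0607).

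The other 6 genes had negative values that did not pass. Ear2 was at -2.40 ± 0.44 (edgeR adjusted p = 0.0648), Ear6 at -1.97 ± 0.37 (0.0765) and Ear1 at -2.06 ± 0.54 (0.114). Ear6 passed without wild-type high-density library 2 (-2.43, edgeR adjusted p = 0.0448). Ccr3 was at -1.29 ± 0.34 (edgeR adjusted p = 0.120), Prg2 at -1.19 ± 0.39 (0.167) and Il5ra at -0.51 ± 0.39 (0.508). All 7 were without overlap and lower in H2R-deficient libraries, where 46.9% of tested genes were without overlap and 25.8% were so in the lower direction. The median of the 7 was -1.41, beside -0.05 over all tested genes. Without the filter on low counts 5 genes passed, and DESeq2 called 4 of the 5 genes to which it gave an adjusted p (Siglecf, Ccr3, Ear2 and Ear6), in fits where 3.9% and 4.69% of all genes passed.

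In low-density cells no gene of the 7 passed in edgeR with the filter on low counts, and 0% of all tested genes did (edgeR, 0 of 14909). Without that filter 4 of the 7 passed in edgeR, Siglecf, Ccr3 and Ear6 lower and Il5ra higher, in a fit where 4.84% of all genes did (1360). At an unadjusted p under 0.05, 6 of the 7 genes and 21% of all tested genes lay in this comparison. Siglecf was at -1.47 ± 0.21 (edgeR adjusted p = 0.0868), Prg2 at -1.48 ± 0.41 (0.117), Ear2 at -1.32 ± 0.42 (0.139), Ccr3 at -0.91 ± 0.34 (0.186), Ear1 at -0.87 ± 0.66 (0.463) and Ear6 at -0.84 ± 0.37 (0.236). Il5ra was the member with a positive value, 0.99 ± 0.31 (edgeR adjusted p = 0.138). All 7 were without overlap between genotypes, 6 lower and 1 higher, beside 60.1% of all tested genes (33.5% higher and 26.6% lower). DESeq2 called Siglecf (-1.47, adjusted p = 2.11e-05), 1 of the 4 genes to which it gave an adjusted p, and limma-voom called 0 (Siglecf adjusted p = 0.0526).

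The density and genotype comparisons share libraries, so their values are not independent. Whether the density effect differed between genotypes was tested directly. In the main edgeR fit, with TMM and the filter on low counts, no gene passed, of the 7 or of all 14909. Total counts in place of TMM gave 635 genes (4.26%), and a replicate block gave 28 (0.188%), with none of the 7 in either. At an unadjusted p under 0.05 in the main fit were 1 of the 7, Il5ra, and 21.1% of all tested genes. Limma-voom called none of the 7. DESeq2 called none of those to which it gave an adjusted p, and it gave none to Prg2, Ear1 and Ear2. Without the filter on low counts edgeR called 2 of the 7, Il5ra (1.57, adjusted p = 0.0263) and Ear6 (1.18, adjusted p = 0.0209), and 1210 genes in all (4.31%). Il5ra had a difference of 1.5 ± 0.50 (edgeR adjusted p = 0.140), being a larger rise in H2R-deficient cells. Siglecf had -0.06 ± 0.30 (edgeR adjusted p = 0.926) and Ear6 1.12 ± 0.52 (0.254). A p that misses the threshold does not show that the effects were alike.

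Other cell types' markers moved along with Il5ra. Calls with density in this and the following gene lists stand beside 12.7% of all tested genes in wild-type cells (8.51% higher, 4.15% lower). In H2R-deficient cells that share was 54% (30% higher, 23.9% lower). All 6 B cell markers (Ms4a1, Cd79a and Pax5 among them) rose with low density in both genotypes, with a median of 2.27 for wild-type and 3.91 for H2R-deficient cells, and all 6 also rose with total counts only (medians 2.87 and 4.82). Their summed level was 40.2 and 46.2 CPM in wild-type high-density, 34.0 and 50.9 in H2R-deficient high-density, 302.8 and 139.5 in wild-type low-density and 580.1 and 724.1 CPM in H2R-deficient low-density libraries, with no marker at 0 in any library. Per 1000 B cell marker counts, Il5ra had 44.0 and 35.8 counts in wild-type high-density and 27.5 and 28.8 in H2R-deficient high-density libraries. At low density it had 28.6 and 33.7 in wild-type and 22.2 and 18.8 in H2R-deficient libraries. Il5ra thus varied less beside these markers than beside Siglecf. The part of B cells in the Il5ra result was not tested.

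**Figure D4:**
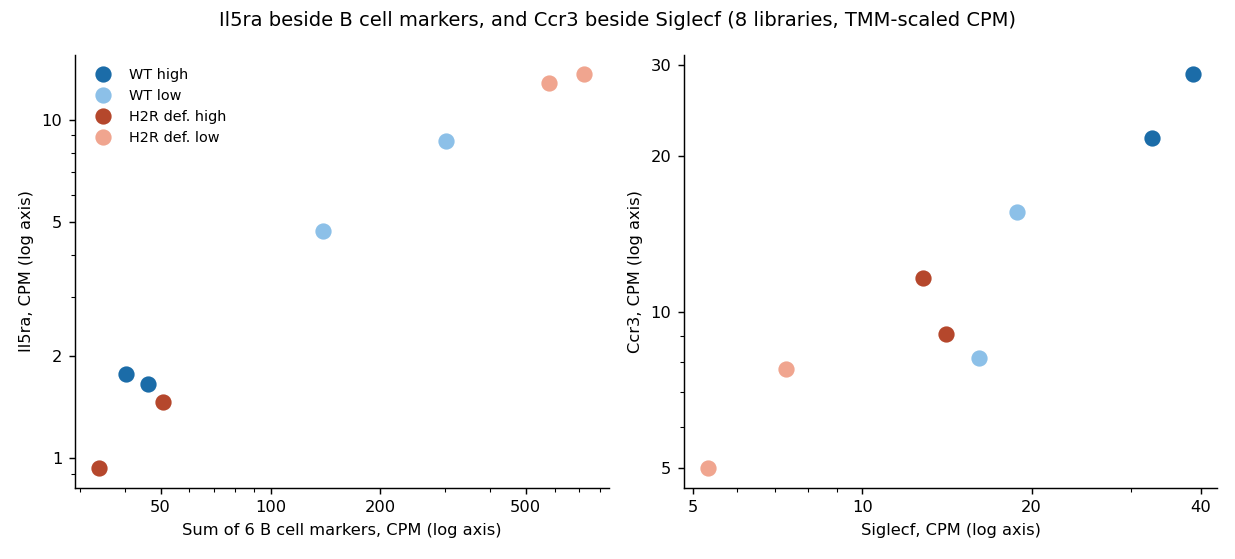
Left, TMM-scaled CPM of Il5ra against the summed CPM of 6 B cell markers; right, Ccr3 against Siglecf; each point is a library, and all axes are logarithmic. Il5ra and the B cell sum are both highest in the H2R-deficient low-density libraries (12.9 and 13.6 CPM of Il5ra), while Ccr3 and Siglecf are both highest in the wild-type high-density libraries.

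Macrophage, monocyte and erythroid markers also moved with groups in which members differed. At high density 11 of 12 macrophage markers had negative values in H2R-deficient against wild-type cells (median -1.60). Their summed level was 1053 and 1030 CPM in wild-type and 979.7 and 840.6 CPM in H2R-deficient high-density libraries, and 723.3 and 676.4 against 553.1 and 513 CPM at low density. With low density none of the 12 passed in wild-type cells in edgeR (2 rose with total counts only), and in H2R-deficient cells 6 rose and 2 fell (median 0.96), the latter being Cd68 (-0.98) and Adgre1 (-0.78, positive with total counts only, where 7 rose and 0 fell). Gata6 of that list was at 0 in wild-type high-density library 2. Of 8 monocyte markers 1 passed at high density, Ace (-2.36, edgeR adjusted p = 0.0374), or 2 with total counts only, and the median was -1.55. With low density in wild-type cells Ccr2 rose (1.73) and Ace (-1.62) and Cd300e (-1.62) fell, and in H2R-deficient cells Ccr2 (2.83) and F13a1 (1.57) rose and Ly6c2 (-1.35) fell. With total counts only 2 rose and 1 fell in wild-type, and 4 rose and 0 fell in H2R-deficient libraries. The monocyte sums were 360 and 391.2 CPM in wild-type and 497.3 and 433.2 CPM in H2R-deficient high-density libraries.

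Erythroid genes, 5 of 6 of them tested, fell with low density in both genotypes, their sums going from 29.1 to 226.4 CPM in the high-density libraries to 0.111 to 1.49 CPM in the low-density libraries. With low density, 3 of 10 neutrophil markers fell in wild-type cells and 10 of 10 in H2R-deficient ones, with medians of -0.80 and -1.66; with total counts only 1 and 10 fell. The part of any of these in the members' values was not tested.

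Mast cell markers also fell in part with low density, in the direction of most members, when libraries were scaled by TMM. In wild-type cells 1 of the 7 tested fell, Kit (-0.93, edgeR adjusted p = 0.0389). In H2R-deficient cells all 7 had negative values (median -1.74) and 4 fell, Kit (-1.35), Cma1 (-1.77), Cpa3 (-1.94) and Fcer1a (-2.20), while 0 of the 7 passed in either genotype with total counts only. Over all tested genes 12.7% passed in wild-type cells (4.15% lower) and 54% in H2R-deficient cells (23.9% lower). Counted in either direction, the mast cell calls were thus near the share of all tested genes. All of them were lower, though, and the matching shares for lower calls were 4.15% and 23.9%. The 9 mast cell markers summed to 36.7 to 63.7 CPM in high-density and 22.2 to 27.7 CPM in low-density libraries. Kit alone gave 26.9 to 42.5 CPM of these sums at high and 12.5 to 19.3 CPM at low density. Cpa3, Mcpt4, Cma1 and Tpsb2 overlapped between the wild-type populations. Between genotypes at high density the 7 went the other way from the members, with positive values in H2R-deficient cells (median 1.22) of which none passed in edgeR. The part of mast cells in the members' values was not tested. The 5 basophil markers summed to 0.471 to 1.47 CPM, with Mcpt8, their defining protease gene, at 0 counts in 6 libraries and at 1 count in each of the H2R-deficient low-density libraries.

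Among 11 other genes associated with eosinophils, 5 had enough counts to be tested. None passed with density in wild-type cells in edgeR, and 1 fell in H2R-deficient cells, Alox5ap (-1.54 ± 0.28, edgeR adjusted p = 0.00204). Alox5ap encodes the protein that presents arachidonic acid to 5-lipoxygenase. It had 12134 to 24954 counts per library, where the 8 members together had 594 to 2039. The neutrophil markers had a median of -1.66 in the same comparison. Which cells gave the Alox5ap counts was not tested. The medians of the 5 tested genes were -0.34 and -0.41, turning to 0.21 and 0.49 with total counts only. None passed between genotypes in edgeR, with medians of -0.62 at high and -0.90 at low density. Alox15, a lipoxygenase gene, had 203 to 225 counts in wild-type and 50 to 61 in H2R-deficient high-density libraries.

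Of the 18 genes for ligands and signalling of the interleukin 5 receptor family, 17 were tested. Il5, the ligand gene, had 2 and 0 counts in wild-type high-density, 23 and 56 in wild-type low-density, 0 and 0 in H2R-deficient high-density and 129 and 35 in H2R-deficient low-density libraries, and it rose with low density in both genotypes (edgeR adjusted p = 0.0338 and 0.00239). In wild-type cells 2 genes of the list fell, Pim1, a kinase gene induced by STAT5 (-0.89, edgeR adjusted p = 0.0219), and Jak1 (-0.67, edgeR adjusted p = 0.0382). In H2R-deficient cells 11 fell, of which Ptpn6 (-1.53), Csf2rb2 (-1.24), Lyn (-1.38) and Pim1 (-1.21) had the lowest adjusted p-values, while Csf2 rose beside Il5. With total counts only 2 rose and 0 fell in wild-type, and 3 rose and 2 fell in H2R-deficient cells. None of the 17 passed between genotypes in edgeR.

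Of the 6 genes for CCR3 ligands 3 were tested. Ccl5 rose with low density in wild-type (3.02 ± 0.41, edgeR adjusted p = 0.00645) and H2R-deficient cells (4.13 ± 0.42, 0.000235). Ccl24, which encodes eotaxin-2, rose in H2R-deficient cells (1.21 ± 0.42, edgeR adjusted p = 0.0392), as did Ccl7 (1.19 ± 0.22, 0.00207). Ccl11, the eotaxin-1 gene, had 0 to 4 counts. At high density all 3 tested ligands had negative values in H2R-deficient cells (median -0.99) and none passed in edgeR.

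Of 12 transcription factor genes tied to the eosinophil lineage 2 fell with low density in wild-type cells, Cebpb (-0.73, edgeR adjusted p = 0.0421) and Trib1 (-1.07, 0.0251). In H2R-deficient cells 6 fell, among them Id1 (-2.33), Cebpb (-1.55) and Xbp1 (-1.44), and 2 rose, Irf8 (2.97) and Zfpm1 (2.29). With total counts only 3 rose and 0 fell in wild-type, and 3 rose and 3 fell in H2R-deficient cells. Gata1 had 59 and 95 counts in wild-type high-density libraries and 14 to 60 in the other 6, and it passed in no comparison.

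Of the 8 other Siglec genes 6 were tested, and Cd22, a B cell Siglec, rose with low density in both genotypes (2.79 and 3.94, edgeR adjusted p = 0.00871 and 0.000277). In H2R-deficient cells Siglecg rose (0.83) and Siglece (-1.57) and Cd33 (-1.28) fell. On total counts 2 of these Siglec genes rose and 0 fell in wild-type, and 2 rose and 1 fell in H2R-deficient cells. The other ribonucleases with enough counts included Rnase4 (1.74) and Rnase6 (2.11), which rose in H2R-deficient low-density cells (edgeR adjusted p = 0.0283 and 0.00133). Of the other heme peroxidase genes, relatives of Epx, none was tested, and Mpo had 0 to 3 counts.

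As a description over the 8 libraries, which share the group structure and the library scaling, log2 CPM of Siglecf correlated with Ccr3 at r = 0.937, with Prg2 at 0.946, with Ear6 at 0.882 and with Il5ra at -0.641. The genes most like Siglecf among 8251 compared were Soat2 (r = 0.989), Ifitm5 (0.985) and Fam193b (0.983). Soat2 had 72.1 and 64.9 CPM in wild-type high-density and 8.09 and 12.6 CPM in H2R-deficient low-density libraries. Those most like Ccr3 were Plscr1 (0.992), Galm (0.987) and Slc28a2 (0.984), and those most like Il5ra were Iars, Ubfd1 and Fam214a (0.997 each). For Ear2 they were Galt (0.986), Gpr65 (0.953) and Pygm (0.951), and for Ear6 Galnt6 (0.972), Zkscan14 (0.963) and Eif5 (0.952), each over the same 8 libraries.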

How the data were processed

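The authors deposited unnormalized counts of reads for each gene, as featureCounts lays them out, per the file headers. For these counts the submitters' processing notes list STAR 2.5.2b, Trimmomatic 0.36, bcl2fastq 2.17.1.14 and Subread 1.5.2 with featureCounts, and GRCm38 as the build. No label or header gives the annotation release, the strand setting or how reads with several mapping places were treated. Symbols came from GENCODE M21 by identifier (48970 of 49315 matched). The filterByExpr function of edgeR, by group, left 14909 genes (7 of the 8 members), which were scaled by TMM and fitted with a robust quasi-likelihood model with 1 mean per group over all 8 libraries (edgeR 4.0.16, R 4.3.3), which left 4 residual degrees of freedom. A Benjamini-Hochberg adjusted p under 0.05 was called. The script was tested on simulated data. Ratios used log2 of counts plus 0.5 (SciPy 1.17.1). DESeq2 1.42.0, limma 3.58.1, total counts, no filter, a replicate block, fits of 4 libraries and leaving out each library were alternatives.

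The members and lists were chosen with earlier results of these data known. Named beside the members are called genes of each list, up to 4 with the lowest adjusted p in a comparison, and, for members reaching 5 CPM in a group, the 3 tested genes with the highest Pearson r among those at 5 CPM or more, leaving out predicted, Rik, pseudogene, antigen receptor and mitochondrial names. Genes outside these rules (Alox15, Csf2, Zfpm1, Il5 in H2R-deficient cells, Gata1, Gata6, Prg3, Ear10, Ear14, Ccl11, Mcpt8, Mpo, Hrh2) were named after their values were seen. Some single genes of the marker lists are not reported here. Promoter windows came from RefSeq (GRCm38.p6).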

Additional observations from a re-analysis of the deposited data

How the results depend on the processing

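With total counts only in place of TMM, 3 of the genes were called with density in wild-type cells (5 in the report), 1 in H2R-deficient cells (4) and 2 between genotypes at high density (1). Values that turned positive then were those of Ccr3 (0.193), Ear2 (0.754) and Ear6 (0.027) with density in H2R-deficient cells and of Siglecf (0.263) and Prg2 (0.055) in the difference of the density effect. DESeq2 called 4 genes between genotypes at high and 1 at low density. Limma-voom called 0 at high density. Without the filter on low counts 5, 4 and 2 were called for genotype at high density, genotype at low density and the difference of effects, in place of 1, 0 and 0. Fits of only the 4 libraries compared called 3 with density in wild-type cells and 0 between genotypes at high density. Over all genes, DESeq2 called 699 and 915 genes between genotypes at high and low density and 990 in the difference, limma-voom 3, 8 and 0, and the edgeR fit without the filter 1095, 1360 and 1210, in place of 31, 0 and 0. Total counts gave 73, 0 and 635. With density in wild-type cells 1888 genes passed, and 4946 with total counts, 3361 without the filter, 581 with 4 libraries and 93 without wild-type high-density library 2.

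Leaving out 1 library at a time gave 0 to 4 calls with density in wild-type cells (0 without wild-type low-density library 2, 1 without wild-type high-density library 2), 3 to 5 in H2R-deficient cells, 0 to 1 between genotypes at high density and 0 to 0 at low density and in the difference. The lone library left in a group was then assumed to vary like the other groups. Density values in H2R-deficient cells ranged from -0.62 to 0.25 for Ear2. In the difference of effects Siglecf ranged from -0.31 to 0.15, Prg2 from -0.59 to 0.11 and Ccr3 from -0.008 to 0.959. The ratio of Ccr3 to Siglecf ranged from -0.001 to 0.354, and an offset of 1 count changed the direction of no ratio. The causes were not tested.

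Taking library numbers as a replicate block, 7 genes were called with density in wild-type cells, 5 in H2R-deficient cells and 0 in the difference. Calls also rose over all tested genes in that fit, to 17.6%, 56.7% and 0.188%, in place of 12.7%, 54% and 0%. The labels do not say that a number marks an animal. Same-numbered libraries deviated together at r = 0.155 for wild-type and 0.326 for H2R-deficient cells across 14909 genes, which are not independent replicates. No paired analysis was possible for genotype, because wild-type and H2R-deficient libraries come from different mice. At 3 to 30 counts per library in some groups, depth limits Ear1, Ear2, Prg2 and Il5ra, and Epx could not be compared.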
